A study of Mus musculus with 4 samples.

Results

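The response of wild-type mouse peritoneal macrophages to the cytokine IL-4 was measured by RNA sequencing in 2 libraries, the untreated and the IL-4-stimulated wild-type cells, out of the 4 libraries of the series. The C57BL/6 mice, 6 to 8 weeks old, had received 4% thioglycolate in the peritoneal cavity, an irritant that recruits macrophages. After 4 days the cells were washed out, left to adhere for 4 h and kept in DMEM with 0.5% serum, and the stimulated cells were then given IL-4 at 20 ng/mL for 6 h. The other 2 libraries, used below only for comparison, came from macrophages of mice whose floxed Trim24 (also called TIF1a) was deleted in myeloid cells by a Cre recombinase under the lysozyme M promoter, with and without the same IL-4 dose. Each group holds 1 library, so that no difference has a replicate check and each call compares 2 libraries, not 2 conditions. The number of mice behind a library is not given in the sources used here.

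IL-4 is a cytokine of type 2 immunity, made by T helper cells, basophils and eosinophils. It binds Il4ra paired with the common gamma chain Il2rg or with Il13ra1, and Janus kinases on the receptor phosphorylate the transcription factor Stat6, which enters the nucleus and binds palindromic DNA motifs. Macrophages so stimulated are called alternatively activated or M2, and are known for arginase, chitinase-like proteins, lectin receptors and roles in tissue repair and in defence against helminths.

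The untreated wild-type library held 11035641 expected reads over 14842 genes, and the IL-4 library 11250099 over 14717 genes. Expected reads are the reads that the RSEM program assigned to a gene, and FPKM are those reads scaled for transcript length and for the reads of the library. Of the 15623 genes detected by a read in either library, the 10590 with at least 50 reads summed over both libraries were compared, and they took 99.7% and 99.8% of the reads. All 8 macrophage markers examined (among them Adgre1, Csf1r, Cd68 and Lyz2) were above 1 FPKM in both libraries. Their sums were 14906 FPKM untreated and 14768 FPKM with IL-4, mostly from Lyz2 (11289 and 10811 FPKM) and Cd68 (3240 and 3465 FPKM). Single markers differed, with Csf1r higher with IL-4 (145 and 270 FPKM) and Cd14 lower (65.96 and 31.35 FPKM). The summed markers of B, T and NK cells, neutrophils, eosinophils, mast cells and dendritic cells each lay between 1.78 and 11.7 FPKM in either library. Markers of mesothelial cells and fibroblasts summed to 49.8 FPKM untreated and 42.9 FPKM with IL-4. In RNA from whole cultures, a change in the number of cells of a type and a change in RNA per cell cannot be told apart.

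The log2 ratios of IL-4 to untreated, taken on FPKM + 0.1, were related to transcript length. With the tested genes cut into 8 bins by length, the median log2 ratio was 0.17 for transcripts of 328 to 1302 bases and -0.39 for those of 5613 bases or more. The share of genes called lower was 2.64% in the first and 30.5% in the last bin. In the knockout pair the same medians were 0.03 and -0.10. A smooth curve of the ratio over log2 length was therefore subtracted as a second way of calculation, after which the medians of all bins lay near 0 and the share called lower lay between 4.15% and 9.14%. What brought about the relation with length was not tested.

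**Figure D1:**
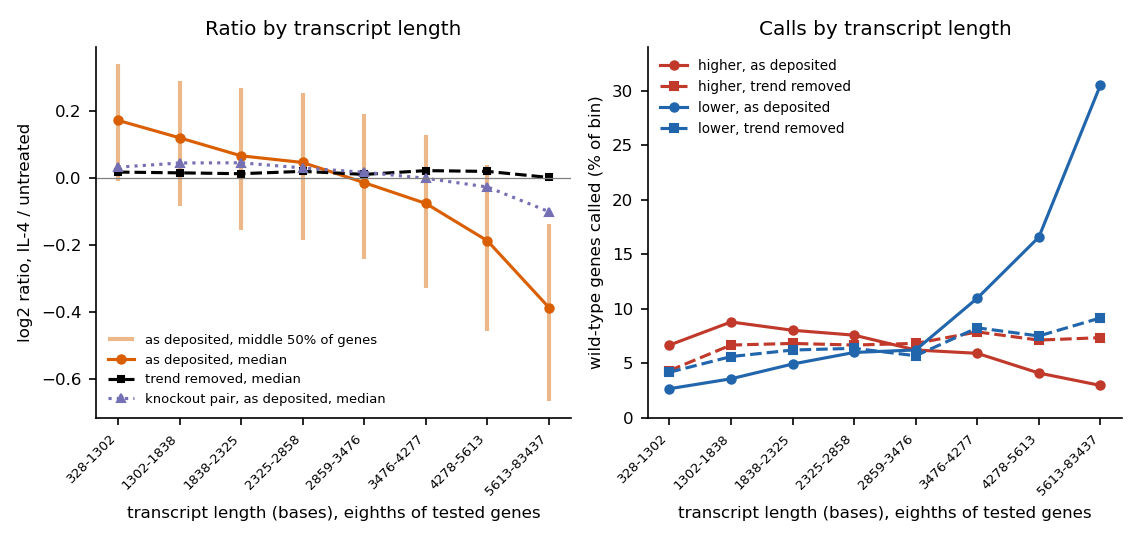
Left, median log2 ratio of IL-4 to untreated (vertical axis) in 8 bins of the tested genes by transcript length in bases (horizontal axis), as deposited and after removal of the trend in the wild-type pair and as deposited in the knockout pair; vertical bars span the middle 50% of wild-type genes. Right, percentage of wild-type genes of each bin called higher or lower; the share called lower climbs from 2.64% to 30.5% as deposited and stays between 4.15% and 9.14% with the trend removed.

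A gene was called at a ratio above 1.5-fold and an adjusted p under 0.05 in Fisher's exact test (two-sided) on reads, which weighs counting error only. With the values as deposited, 663 genes (6.26% of those tested) were called higher with IL-4 and 1076 (10.2%) lower. With the length trend removed the counts were 708 (6.69%) and 699 (6.6%). Called in one direction in both ways were 576 genes that were higher (5.44%) and 629 that were lower (5.94%), and "rose" and "fell" are used below of these genes only. The 446 genes called lower only as deposited had a median transcript length of 6532 bases, against 3590 bases for those that fell in both ways and 2640.5 bases for those that rose. Large changes were mostly increases. Above 4-fold in both ways were 87 genes that rose and 15 that fell, and above 16-fold 26 and 1. The genes that rose took 4.18% of all reads without IL-4 and 9.04% with it, while those that fell went from 6.73% to 3.499%. Under an assumed biological coefficient of variation of 0.4 between cultures, in place of counting error alone, 40 genes were called higher and 1 lower.

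**Figure D2:**
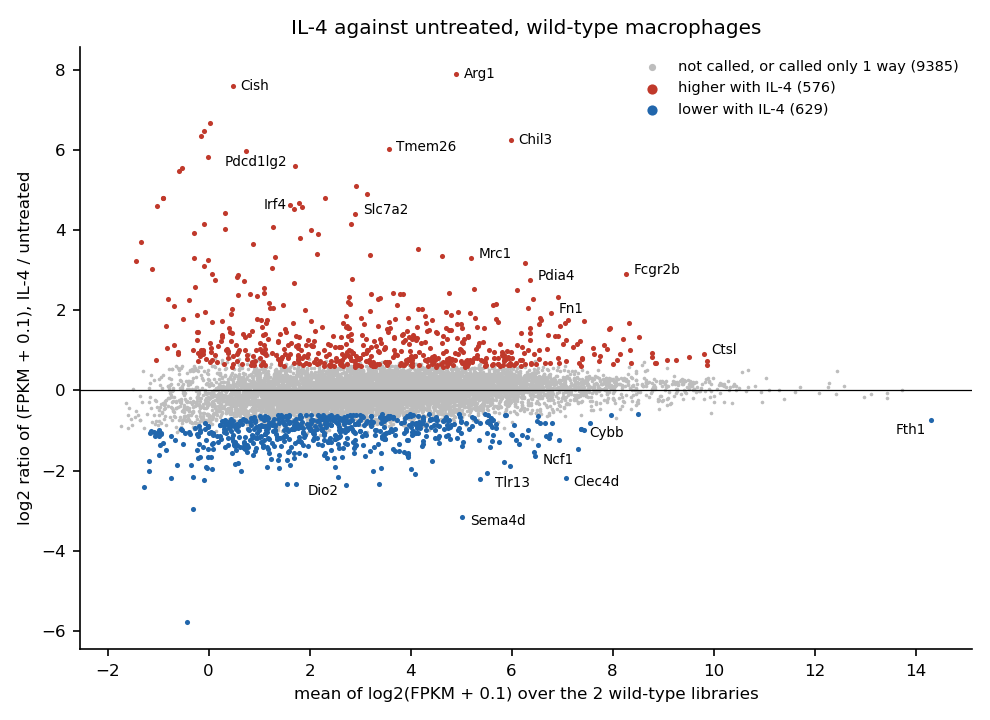
Log2 ratio of (FPKM + 0.1), IL-4 over untreated (vertical axis), against the mean log2(FPKM + 0.1) of the 2 wild-type libraries (horizontal axis) for 10590 tested genes; red, 576 genes called higher and blue, 629 called lower with and without the length trend. Arg1 stands at 7.90 and Sema4d at -3.16, and more raised than lowered genes lie far from 0.

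The highest increases were in enzymes and secreted proteins of the M2 state, together with transcription factors, inhibitors of cytokine signalling and transporters. Arg1, which splits arginine into ornithine and urea (chromosome 10, bases 24915207 to 24927470 of GRCm38), was listed at 1.84 FPKM untreated and 463 FPKM with IL-4. Its log2 ratio was 7.90 ± 0.26 (SE, counting error) on 30 and 7711 reads. Chil3, the chitinase-like protein Ym1, went from 7.17 to 555 FPKM (6.26 ± 0.13). Tmem26, a membrane protein, went from 1.36 to 95.8 FPKM (6.04 ± 0.16), and Ms4a4a, a tetraspan surface protein, from 1.51 to 48.3 FPKM. Retnla, the secreted resistin-like protein Fizz1, was at 1.58 and 29.7 FPKM on 10 and 191 reads. Slc7a2, an importer of arginine and lysine, went from 1.52 to 34.5 FPKM with a log2 ratio of 4.42 ± 0.13, and with the trend removed its ratio was 4.83, since its transcripts measured 7721 bases.

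Among the regulators, Irf4, a transcription factor required for M2 gene expression, went from 0.57 to 15.4 FPKM, and Batf3, a leucine zipper factor known from dendritic cells, from 1.19 to 44.6 FPKM. Socs1, which blocks Janus kinases, was at 0.83 and 26.1 FPKM. Pdcd1lg2, the PD-1 ligand PD-L2, was at 0.37 and 22.7 FPKM. Plekhf1, a phosphoinositide-binding protein of endosomes and lysosomes, was at 0.58 and 17.3 FPKM, and Rab15, a small GTPase of endocytic recycling, at 0.49 and 9.83 FPKM. Mmp13, a collagenase, went from 0.51 to 15.04 FPKM, the chemokine Ccl7 from 0.91 to 16.1 FPKM and the adaptor Scimp from 1.05 to 17.3 FPKM. Serpina3g, which encodes a serine protease inhibitor, and Serpina3h, listed as a transcribed pseudogene, had log2 ratios of 3.82 and 4.58. They belong to a cluster of closely related genes, which can share reads. All of the 20 highest genes were still called higher at the assumed coefficient of 0.4.

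Some genes had almost no reads without IL-4. Cish, an inhibitor of STAT signalling, had 0 reads untreated and 662 with IL-4 (19.4 FPKM), which with a floor of 3 reads is at least 216-fold higher. Adipoq, the hormone adiponectin best known from fat cells, had 0 and 139 reads (at least 45.5-fold higher). Il31ra, a receptor chain for IL-31, had 0 and 98 reads (at least 32.04-fold), Tarm1, an activating receptor of myeloid cells, 0 and 93 (at least 30.4-fold), and Mrgprg, an orphan G-protein-coupled receptor, 0 and 91 (at least 29.8-fold). Cdh1, the cell adhesion protein E-cadherin, had 1 and 52 reads, a ratio of shares of 51.0 (95% counting interval, 8.76 to 2053). The collagen chain Col6a5 had 1 and 141 reads, the lectin Mgl2 2.82 and 99.9, the inhibitor Serpina3f 2.73 and 88.6 and the chemokine Ccl24 3 and 72. All 10 of these genes had higher values with IL-4 in the knockout pair too. The 3 Sprr2a genes, which encode small proline-rich proteins of epithelia, share near-identical sequence, and Sprr2a1 and Sprr2a2 were listed with the same values, so that their reads (0 and 110 each, and 1 and 123 for Sprr2a3) cannot be assigned with certainty. Gm2026, Fam177a and Sap25 (0 to 1.11 reads untreated, 55.5 to 418 with IL-4) and an ID without a symbol match (273 and 0 reads) had between 0 and 13.1 reads in either knockout library, and their reads may likewise be shared with other gene copies.

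**Figure D3:**
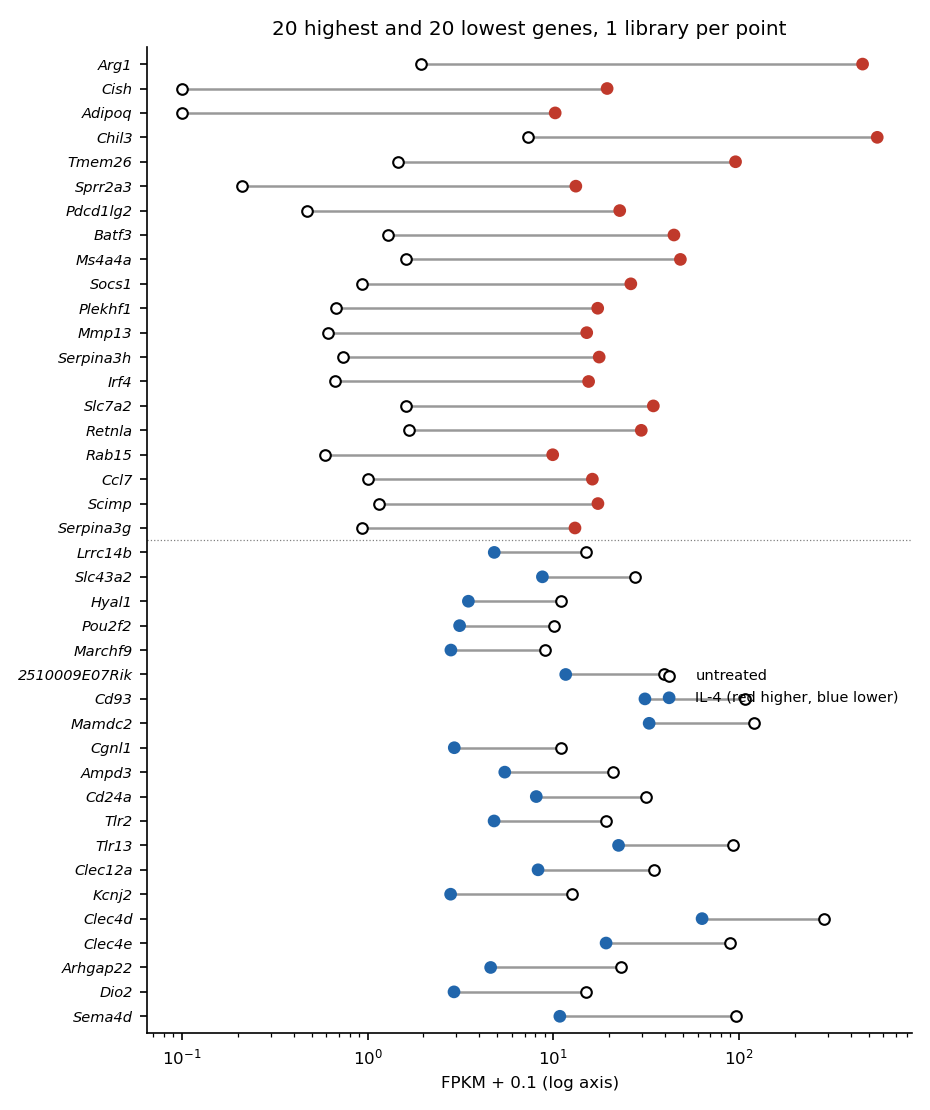
FPKM + 0.1 on a log axis in the untreated (open circles) and IL-4 (filled circles) wild-type libraries for the 20 genes with the highest and the 20 with the lowest log2 ratio, taken from called genes whose mean over the pair was 5 FPKM or more; each point is 1 library. The lowered genes start between 8.98 and 287 FPKM, and the raised genes except Chil3 below 2 FPKM, which the choice by mean and ratio in part fixes.

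Over all genes called in both ways, the median untreated level was 6.215 FPKM for the raised and 6.54 FPKM for the lowered, and the median log2 ratios were 1.02 and -0.98. Sema4d, a semaphorin that signals through plexin B1 (chromosome 13, bases 51685529 to 51793678), was listed at 96.7 FPKM untreated and 10.8 FPKM with IL-4, on 4905 and 555 reads, which was the lowest ratio of the named set (-3.16 ± 0.06). Several of the others recognise microbes or damaged cells. The lectin Clec4d was at 287 and 63.2 FPKM and its neighbour Clec4e (Mincle, a receptor for mycobacterial glycolipids) at 89.0 and 19.2 FPKM. Tlr13, which senses bacterial ribosomal RNA, was at 93.0 and 22.4 FPKM, Tlr2, a receptor for lipoproteins, at 19.1 and 4.70 FPKM, and Clec12a, an inhibitory lectin, at 34.8 and 8.18 FPKM. Cd93, a C-type lectin-like surface protein, was at 107 and 31.1 FPKM, a log2 ratio of -1.79 that became -1.44 with the length trend removed.

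Other genes of this group act on hormones, ions and nucleotides or on the cytoskeleton. Dio2, the deiodinase that makes active thyroid hormone, was at 14.96 and 2.82 FPKM. Arhgap22, a GTPase-activating protein for Rac, was at 23.2 and 4.50 FPKM, the potassium channel Kcnj2 at 12.5 and 2.70 FPKM, and Ampd3, which deaminates AMP, at 20.8 and 5.38 FPKM. Mamdc2 was at 121 and 32.7 FPKM, Cd24a at 31.6 and 8.0 FPKM, and the B-lymphoid factor Pou2f2 at 9.94 and 3.03 FPKM. The remaining members, 2510009E07Rik, Marchf9, Hyal1, Slc43a2, Cgnl1 and Lrrc14b, had log2 ratios between -1.91 and -1.65. At the assumed coefficient of 0.2 all 20 lowest genes were called lower, and at 0.4 none of them was.

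Ranked by absolute change, the response had other leaders. The highest gain in FPKM was that of Lgals3 (galectin-3), from 4701 to 6588, a log2 ratio of 0.49 below the fold threshold. Of the 10 highest gains, Fcgr2b (112 to 847), Ctsl (654 to 1227), Chil3 and Lgmn (722 to 1209) passed it. Fcgr2b is the inhibitory receptor for IgG, and Ctsl and Lgmn are lysosomal proteases. B2m, Ctss, Ctsz, Lgals1 and Sh3bgrl3 did not pass it, with log2 ratios of 0.12 to 0.52, and the ratio of Ctss was -0.01 with the trend removed. The highest loss was in Fth1, the heavy chain of the iron store ferritin, from 26195 to 15800.4 FPKM (-0.73), and Fth1 was the only gene of the 10 highest losses that fell in both ways. The other 9, among them Ctsd, Gpnmb, Psap and Lyz2, had log2 ratios between -0.56 and -0.06.

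DNA near the start of the raised genes was searched for the palindrome bound by Stat6, TTC and GAA separated by any 4 bases (which reads the same on both strands), in RefSeq promoters of GRCm38.p6 from 250 bases before to 50 bases after the gene start. A promoter was found for 458 of the 576 genes that rose, and 43 of them held the motif (9.39%, 95% Wilson interval 7.04% to 12.4%). The share was 13 of 69 (18.8%, 11.4% to 29.6%) for genes above 4-fold, 21 of 481 (4.37%, 2.87% to 6.58%) for genes that fell and 5.35% for all tested genes, and 6.99% of the promoters of all 27025 genes in the table held it. With 3 bases between TTC and GAA (the spacing common to other STAT factors), the corresponding shares were 9.17%, 20.3%, 4.99%, 6.99% and 8.47%. The spacings were counted apart, and a match of one may overlap a match of the other. Of the 20 highest genes 5 of 15 with a promoter held the motif with 4 bases, and of the 20 lowest 0 of 17. These letters describe a sequence match, and binding was not measured in these libraries.

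The 250 bases before the start are printed for 4 of these 5 genes, because they place the motif (in capitals) beside genes with log2 ratios of 4.15 to 6.04. Sprr2a3, the fifth, is left out since its reads are uncertain. The match began 145 bases before the start of Retnla (chr16:48842359-48842608, plus strand), 82 bases before that of Pdcd1lg2 (chr19:29410669-29410918, plus strand) and 119 bases before that of Plekhf1 (chr7:38227995-38228244, minus strand). Tmem26 (chr10:68723496-68723745, plus strand) held 2 matches, 227 and 41 bases before its start. The G and C content of these stretches was 42.8%, 48.4%, 64.0% and 60.8%, in the same order.
Retnla: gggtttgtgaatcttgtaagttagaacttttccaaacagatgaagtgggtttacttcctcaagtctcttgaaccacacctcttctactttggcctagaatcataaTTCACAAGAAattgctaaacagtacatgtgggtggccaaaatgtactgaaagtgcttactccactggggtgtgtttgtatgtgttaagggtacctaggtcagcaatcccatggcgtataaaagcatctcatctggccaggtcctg
Pdcd1lg2: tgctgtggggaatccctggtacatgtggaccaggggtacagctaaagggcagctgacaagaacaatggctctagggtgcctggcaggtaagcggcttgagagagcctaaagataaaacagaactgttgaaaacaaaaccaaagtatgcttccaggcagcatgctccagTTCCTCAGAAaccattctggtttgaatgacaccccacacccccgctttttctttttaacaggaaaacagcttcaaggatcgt
Plekhf1: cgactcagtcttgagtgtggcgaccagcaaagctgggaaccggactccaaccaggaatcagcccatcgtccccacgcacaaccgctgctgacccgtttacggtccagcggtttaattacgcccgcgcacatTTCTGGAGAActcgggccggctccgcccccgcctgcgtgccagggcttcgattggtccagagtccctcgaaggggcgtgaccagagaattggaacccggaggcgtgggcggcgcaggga
Tmem26: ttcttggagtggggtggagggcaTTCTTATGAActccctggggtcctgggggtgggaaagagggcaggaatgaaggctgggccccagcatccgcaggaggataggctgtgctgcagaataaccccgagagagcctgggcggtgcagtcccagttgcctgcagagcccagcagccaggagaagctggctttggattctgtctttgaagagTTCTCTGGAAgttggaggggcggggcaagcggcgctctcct

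Gene lists drawn up for pathways, receptor families and cell functions were then read against the background of all tested genes, in which 5.44% rose and 5.94% fell and the median log2 ratio was -0.01. Of all 10590 tested genes, 5128 had a ratio above 0 as deposited and 5516 with the trend removed. Counts of raised and lowered members are of those that passed in both ways, out of members tested.

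**Figure D4:**
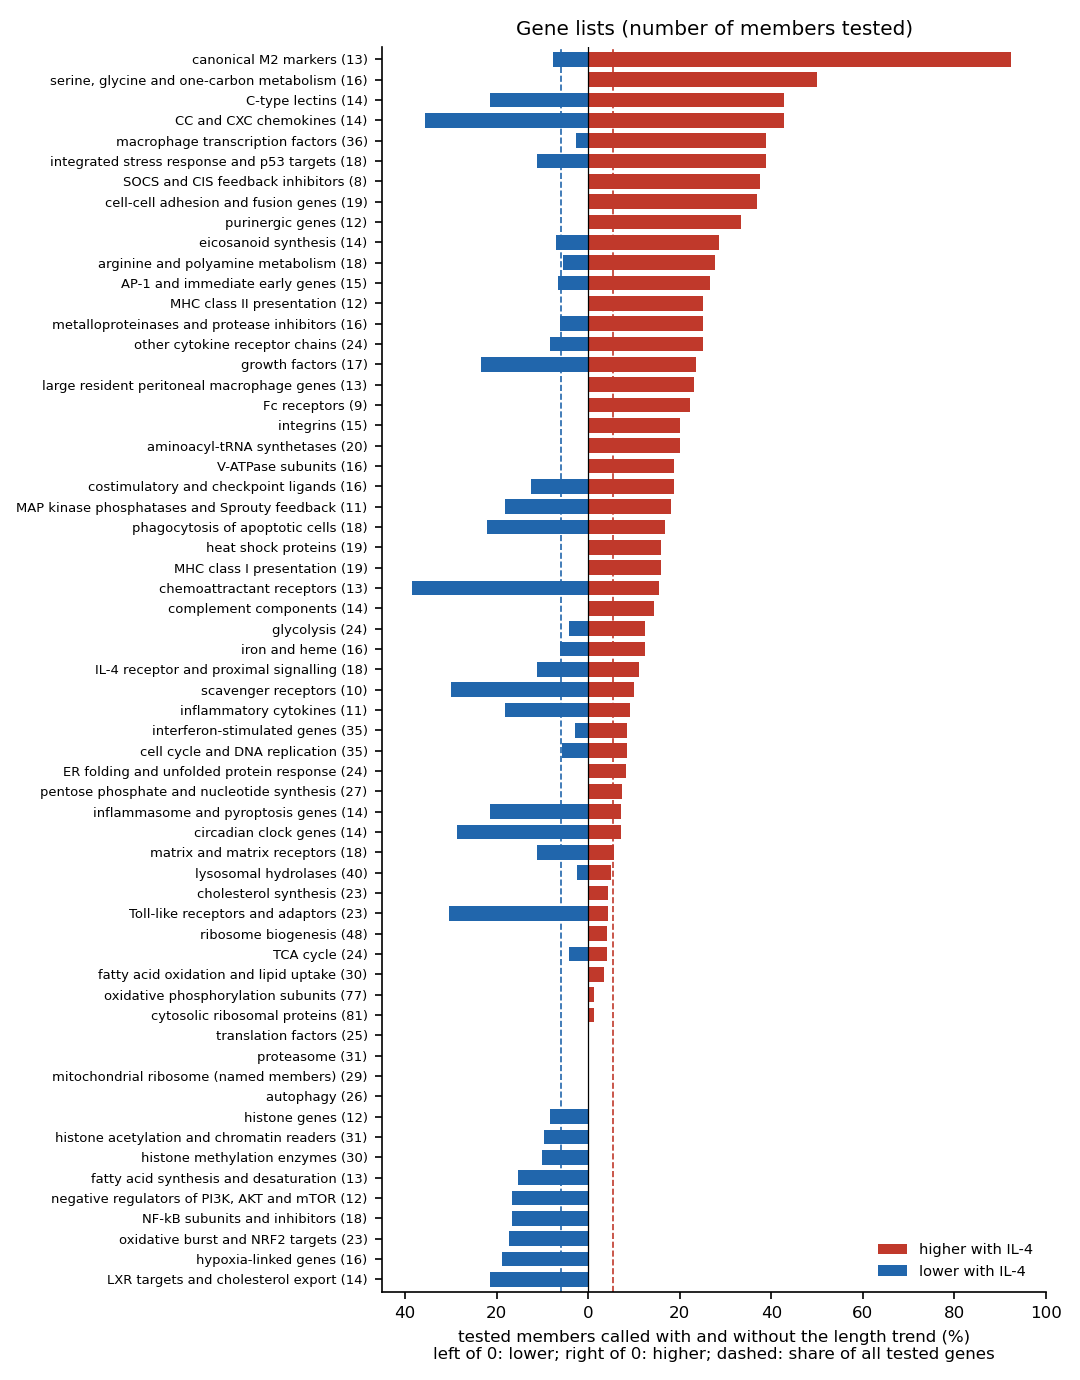
Percentage of tested members of the gene lists that rose (red, right of 0) or fell (blue, left of 0) with IL-4, called with and without the length trend; the number of members tested is in brackets and the dashed lines give the shares of all tested genes (5.44% and 5.94%). Canonical M2 markers stand at the top with 12 of 13 members raised, and 4 lists have no member called in either direction.

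Of 13 canonical M2 markers, 12 rose and 1 fell, with a median log2 ratio of 3.32. These markers are known from IL-4-treated macrophages, so their direction is no independent result. The one that fell was Il1rn, which encodes the IL-1 receptor antagonist (-0.81). Beside those above, Mrc1 (the mannose receptor) went from 11.4 to 115 FPKM and Fn1 (fibronectin) from 56.1 to 213 FPKM, on 5006 and 19129 reads.

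Of 18 genes of the receptor and its proximal signalling, 2 rose and 2 fell, with a median of -0.22. Jak2, a kinase of many cytokine receptors, went from 10.1 to 26.4 FPKM. Ptpn2, a phosphatase that acts on Janus kinases and STATs, went from 11.8 to 20.1 FPKM. The receptor chain Il13ra1 fell from 7.87 to 4.79 FPKM, and Irs2, an adaptor of IL-4 and insulin receptors, from 3.40 to 1.40 FPKM. Il4ra was listed at 9.76 and 12.4 FPKM (log2 ratio 0.34), Il2rg at 124 and 121, Jak1 at 67.3 and 64.0, Jak3 at 3.49 and 2.65 and Stat6 at 69.7 and 56.0 FPKM (-0.31). None of these 5 passed the fold threshold. Trim24 (2.55 and 1.48 FPKM) and the acetyltransferase gene Crebbp (6.68 and 3.64 FPKM), which the study is about, were called lower as deposited (-0.75 and -0.86) and not with the trend removed (-0.44 and -0.46).

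Feedback inhibitors of cytokine receptors rose in 3 of 8 cases, which were Cish, Socs1 and Socs2 (0.22 and 2.97 FPKM, on 5 and 74 reads), and none fell. Of 24 further cytokine receptor chains, 6 rose and 2 fell. Il6st, the gp130 chain shared by IL-6-type cytokines, went from 18.6 to 55.3 FPKM, and Il31ra, which pairs with other chains of that family, rose from no reads. Il27ra was at 2.26 and 4.83 FPKM. Il10ra, a chain of the receptor for IL-10, fell from 17.0 to 7.31 FPKM.

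Transcription factors of macrophages were the list with the most raised members by number, 14 of 36, with 1 that fell and a median of 0.41. By share several lists stood higher, such as canonical M2 markers (12 of 13) and serine, glycine and one-carbon metabolism (8 of 16). Egr2, a zinc finger factor induced by IL-4, went from 29.4 to 95.8 FPKM, Nfil3, a leucine zipper repressor, from 6.10 to 32.96 FPKM and Bhlhe40, a helix-loop-helix repressor, from 101 to 215 FPKM. Of 15 AP-1 and immediate early genes, 4 rose and 1 fell. Ier3 went from 5.07 to 60.3 FPKM, Atf3 from 228 to 457 FPKM and the mRNA-destabilising protein gene Zfp36 from 29.9 to 52.1 FPKM, while its relative Zfp36l2 fell from 93.1 to 43.4 FPKM. Of 11 MAP kinase phosphatases and Sprouty-type inhibitors, Dusp4 (3.76 and 9.71 FPKM) and Dusp2 rose and Dusp1 (8.18 and 5.24 FPKM) and Spred2 fell.

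In the lists of Toll-like receptors, inflammasome genes and NF-kB genes, most of the called members had lower values with IL-4. Of 23 Toll-like receptors and adaptors, 7 fell and 1 rose. Cd180, a homologue that modulates Tlr4, fell from 109 to 50.2 FPKM beside Tlr13 and Tlr2, and the one that rose was Tlr8, from 52.1 to 175 FPKM on 2824 and 9692 reads. Of 14 inflammasome and pyroptosis genes, 3 fell and 1 rose. Nlrp3 fell from 1.18 to 0.18 FPKM on 53 and 8 reads. The inhibitory Nlrc3 fell from 7.42 to 1.38 FPKM and the sensor gene Naip2 from 20.9 to 11.5 FPKM, whereas Pycard, the adaptor ASC, rose from 27.7 to 46.9 FPKM. Of 18 NF-kB subunits and inhibitors, 3 fell and none rose. All 3 (Nfkbiz with 2.56 and 0.89 FPKM, Nfkbid and Tnip1 with 61.0 and 37.9 FPKM) encode regulators, not subunits.

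Cytokines and chemokines moved in both directions. Of 11 inflammatory cytokine genes tested, Tnf fell from 5.45 to 2.39 FPKM and Il15 from 6.03 to 3.07 FPKM, and the growth factor Csf1 rose from 3.35 to 7.63 FPKM. Of 14 CC and CXC chemokines, 6 rose and 5 fell. Among the raised were the monocyte attractants Ccl2 (4.51 and 22.5 FPKM) and Ccl7, the eosinophil attractant Ccl24 and Ccl9 (24.3 and 109 FPKM). The lowered included Ccl3 (60.1 and 34.9 FPKM) and Ccl4 (14.4 and 6.57 FPKM), which attract monocytes and lymphocytes. Of 13 chemoattractant receptors, 5 fell. C5ar1 and C5ar2, which bind the complement fragment C5a, fell from 30.1 to 11.4 FPKM and from 1.26 to 0.62 FPKM, and Ccrl2 fell from 76.8 to 28.9 FPKM.

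Interferon-stimulated genes as a list stayed near the background, with 3 of 35 raised, 1 lowered and a median of -0.01. Ifi204 (15.8 and 45.4 FPKM) and Zbp1 (10.9 and 27.3 FPKM), which sense nucleic acids, and the GTPase gene Gbp2 rose, and Oas2 fell on 89 and 52 reads.

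Receptors for uptake moved in both directions. Of 14 C-type lectins, 6 rose and 3 fell. Clec7a (dectin-1, a receptor for beta-glucan) went from 229 to 581 FPKM, and Clec10a and Mgl2, which bind galactose-type sugars, were at 4.52 and 18.2 FPKM and at 0.17 and 5.76 FPKM, though these neighbours are alike in sequence. Olr1, a lectin-like receptor for oxidised lipoprotein, rose on 22 and 133 reads. The 3 that fell were Clec4e, Clec4d and Clec12a. Of 10 scavenger receptors, Cd36 rose from 467 to 795 FPKM, and Stab1 (10.3 and 3.76 FPKM), Msr1 (39.5 and 24.99 FPKM) and Scarb1 fell. Of 18 genes for phagocytosis of apoptotic cells, 3 rose and 4 fell. Of 9 Fc receptors, Fcgr2b and Fcrls rose and none fell, and of 14 complement genes Cfp (properdin, 54.4 and 105 FPKM) and Itgax rose and none fell.

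Adhesion genes rose in 7 of 19 cases in the list for cell-cell adhesion and fusion, and none fell. Cdh1 was joined by the simple keratins Krt18 (12 and 79 reads) and Krt8 (20 and 74 reads), all at or under 5.05 FPKM, and by the metalloproteinase Adam8 (107 and 252 FPKM). Keratins and E-cadherin are also made by mesothelial cells. Of the mesothelial markers, Msln had 12 and 2 reads without and with IL-4, Upk3b 12 and 7 and Wt1 68 and 65. Lrrn4 rose on 32 and 68 reads. The part of mesothelial cells in the reads of Cdh1 and the keratins was not tested. Of 15 integrins and ligands, Itgb3 (4.49 and 10.9 FPKM), Itgax (44.7 and 77.2 FPKM) and Vcam1 rose. The semaphorin Sema4b rose from 4.65 to 23.3 FPKM in contrast to Sema4d, and the semaphorin receptors Nrp2 (37.4 and 14.9 FPKM) and Plxna1 (151 and 68.7 FPKM) fell.

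Of 18 matrix genes tested, Fn1 rose and Tgfbi and Col18a1 (both at or under 3.10 FPKM) fell. As deposited 5 of the 18 were called lower, and the median transcript length of the list was 5393 bases. In the knockout pair 9 of 19 rose, beside a mesothelial and fibroblast marker sum of 25.4 FPKM untreated and 45.2 FPKM with IL-4 there, whose part in that count was not tested. Of 16 metalloproteinases and protease inhibitors, 4 rose, among them Timp1 (1.23 and 5.74 FPKM), and Mmp27 fell. Of 17 growth factors and receptors, 4 rose and 4 fell. Hbegf, a ligand of the EGF receptor, rose from 0.42 to 6.48 FPKM and Flt1, a VEGF receptor, from 0.11 to 3.09 FPKM. Vegfa fell from 16.3 to 7.77 FPKM, its receptor Kdr from 2.80 to 1.06 FPKM and Pdgfb on 63 and 11 reads.

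A few genes of antigen presentation rose, and no class I or class II gene fell. Of 12 class II genes, H2-DMa, H2-DMb2 and the lysosomal thiol reductase Ifi30 (417 and 705 FPKM) rose. Of 19 class I genes, the immunoproteasome subunits Psmb10 (53.8 and 274 FPKM) and Psmb9 and H2-Q7 rose. H2-Q7 and H2-DMb2 belong to families of near-identical genes and are uncertain. In the knockout pair 1 of 13 class II genes and 1 of 19 class I genes rose, and none fell. Of 16 costimulatory and checkpoint ligands, 3 rose and 2 fell. Cd40 was at 0.76 and 4.34 FPKM, the checkpoint protein Vsir (VISTA) fell from 125 to 71.2 FPKM and Tnfrsf14 fell on 56 and 33 reads.

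Amino acid metabolism was the metabolic area with the most raised genes. For serine, glycine and one-carbon metabolism 8 of 16 rose and none fell, with a median of 0.60 (0.67 with the trend removed). Phgdh, the first enzyme of serine synthesis, went from 20.7 to 72.1 FPKM, Psat1, the next one, from 11.1 to 26.5 FPKM, Asns, which makes asparagine, from 12.7 to 29.8 FPKM and the importer of large neutral amino acids Slc7a5 from 3.71 to 11.6 FPKM. Of 18 arginine and polyamine genes, 5 rose, and 1 fell, Smox, which oxidises spermine (-0.87). Arg1 and Slc7a2 came first, then Gatm (10.5 and 26.8 FPKM), which uses arginine to make the precursor of creatine, and Sat1 (207 and 387 FPKM), which acetylates polyamines. Of 20 aminoacyl-tRNA synthetases, all had a ratio above 0 and 4 rose (Rars, 46.5 and 81.1 FPKM, Tars, Yars and Cars). Genes of the integrated stress response and of p53 rose in 7 of 18 cases and fell in 2. Ddit3 (CHOP) went from 46.7 to 103 FPKM, Trib3 from 6.98 to 16.02 FPKM and Chac1, which degrades glutathione, from 2.47 to 5.53 FPKM.

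Carbon and lipid metabolism changed in few genes. Of 24 glycolysis genes, Hk2 (10.4 and 23.2 FPKM), Pfkp (33.9 and 59.1 FPKM) and Pfkfb4 rose, and Pfkl, the liver-type phosphofructokinase, fell from 24.9 to 14.04 FPKM. Of 24 TCA cycle genes, Idh3a rose and Acod1, which makes itaconate, fell from 10.3 to 5.74 FPKM. Of 30 genes of fatty acid oxidation and lipid uptake 1 (Cd36) rose, of 23 genes of cholesterol synthesis 1 (Dhcr7, 20.3 and 35.5 FPKM) rose, and of 13 genes of fatty acid synthesis 2 (Fads1 and Acss2) fell. Nuclear subunits of oxidative phosphorylation had 72 of 77 ratios above 0 as deposited and 57 with the trend removed, with medians of 0.25 and 0.10, and 1 (Cox6a2, on 32 and 62 reads) rose. Of 14 LXR targets and cholesterol exporters, Abca1 (7.94 and 3.18 FPKM), Mylip and Scarb1 fell. Of 27 genes of the pentose phosphate path and nucleotide synthesis, Prps1 (6.95 and 19.47 FPKM) and Rpia rose.

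Lipid mediators and nucleotide signalling were affected at the level of enzymes and receptors. Of 14 eicosanoid genes, 4 rose and 1 fell. Ptgs1, the constitutive cyclooxygenase, went from 8.63 to 35.8 FPKM, Tbxas1, the thromboxane synthase, from 16.9 to 53.4 FPKM and Ptger2, a receptor for prostaglandin E2, from 1.67 to 5.59 FPKM, while Hpgds, which makes prostaglandin D2, fell from 45.5 to 19.8 FPKM. Of 12 purinergic genes, the receptors P2ry1 (3.33 and 8.78 FPKM), P2ry6, P2ry14 and Adora2a rose and none fell.

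Of 16 iron and heme genes, Tfrc, the transferrin receptor, rose from 39.1 to 163 FPKM on 2148 and 9144 reads, Hfe, which binds that receptor, rose from 9.29 to 21.7 FPKM, and Fth1 fell. Of 23 genes of the oxidative burst and of NRF2, 4 fell and none rose, with a median of -0.28 (-0.41 with the trend removed). Ncf1 (p47phox) and Cybb (gp91phox), parts of the phagocyte oxidase, fell from 156 to 49.8 FPKM and from 232 to 119.6 FPKM, and Gsr and Srxn1, which reduce glutathione and peroxiredoxins, from 32.2 to 17.3 FPKM and from 61.4 to 36.4 FPKM. Of 16 hypoxia-linked genes, Vegfa, P4ha2 (44 and 23 reads) and Ndrg1 fell.

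The machinery for protein folding, degradation and synthesis moved little, with some strong exceptions. Of 24 genes for folding in the endoplasmic reticulum, Pdia4, a disulfide isomerase, went from 31.7 to 214 FPKM on 917 and 6314 reads, and Xbp1, a factor of the unfolded protein response, from 54.7 to 93.0 FPKM. Of 19 heat shock proteins, Hsph1, Hspa9 and Hspd1 rose. Of 16 subunits of the V-ATPase, the proton pump of lysosomes, 3 rose: Atp6v0a1 (142 and 415 FPKM), Atp6v0d2 (548 and 978 FPKM) and Atp6v1b2 (358 and 579.5 FPKM). Of 40 lysosomal hydrolases, Ctsl and Lgmn rose and Ctsk fell from 309 to 201 FPKM. None of 31 proteasome, 26 autophagy, 25 translation factor and 29 mitochondrial ribosome genes was called in both ways. Of 81 cytosolic ribosomal protein genes 1 rose (Rpl37rt, a retrotransposed copy whose reads may be shared with Rpl37). Their median of 0.17 as deposited was 0.02 with the trend removed. Of 48 ribosome biogenesis genes, 42 had ratios above 0 in either way, with medians of 0.32 and 0.28, and Tsr1 and Wdr74 rose.

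For genes with long transcripts the way of calculation decided much of the count. Of 31 genes of histone acetylation and its readers, 7 were called lower as deposited, with a median of -0.34, and 3 with the trend removed, with a median of -0.03. The 3 that fell in both ways were the coactivator Ncoa1 (6.11 and 2.82 FPKM) and the deacetylases Hdac5 (23.5 and 12.7 FPKM) and Hdac7. Of 30 histone methylation enzymes, 10 and 3 were called lower, and Setd1b, Kdm5b and Ezh2 fell in both ways. Of 14 circadian clock genes, 6 and 4 were called lower, among them Per1 (7.02 and 3.27 FPKM), Per2 and Per3. Bhlhe40 (101 and 215 FPKM) was the 1 clock gene that rose. The 3 Per genes were not called in the knockout pair, at log2 ratios of -0.52 to -0.38. Of 12 negative regulators of PI3K, AKT and mTOR, Phlpp1 (7.53 and 2.87 FPKM) and Deptor (3.04 and 1.39 FPKM) fell. Cell cycle genes were near the background, with 3 of 35 raised (Cdkn1a, the inhibitor p21, with 22.03 and 41.8 FPKM, Ccnb1 and Mcm2) and 2 lowered. Of 13 genes known from large resident peritoneal macrophages, F10 (coagulation factor X), Selp and Rarb rose and none fell, and of 12 histone genes 1 (H2bc21) fell.

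Genes were also grouped by the letters at the start of their symbols. Of 129 such groups with at least 10 tested genes, the highest share that rose was in Ccl (6 of 10), followed by Ifi (5 of 12), Aldh and Clec (3 of 12 each). Lowered genes were also found in Ccl (2 of 10) and in Clec (3 of 12, as many as rose), and none in Ifi or Aldh. Among the Ifi genes were Ifi204, Ifi202b (12.1 and 34.3 FPKM) and Ifi211 (8.67 and 23.4 FPKM), which are neighbours of related sequence and may share reads. The aldehyde dehydrogenases that rose were Aldh1a2, which makes retinoic acid (3.92 and 11.8 FPKM), Aldh1b1 and Aldh18a1. The highest share that fell was in Arhgef, a group of guanine nucleotide exchange factors, with 4 of 12, and no Arhgef gene rose. Among those 4 were Arhgef18 (3.31 and 1.19 FPKM) and Arhgef6 (21.5 and 12.2 FPKM). Next came the symbols starting with Pde, mostly phosphodiesterases, which moved in both directions. Of 14 Pde genes, 4 fell (Pde7b at 5.03 and 1.96 FPKM) and 3 rose. Of 303 genes with the zinc finger symbol Zfp, 6 rose and 16 fell, and of 180 solute carriers (Slc) 16 rose and 16 fell. In 35 groups no gene was called in both ways.

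Raised genes often lay side by side on the chromosome. Of the 576 genes that rose, 162 (28.1%) had a raised gene next to them among the tested genes, whereas 10.4% of all tested genes had such a neighbour, and for lowered genes the shares were 19.1% and 11.3%. No test was made of these shares, and related genes in a cluster can share reads. The longest raised run had 5 genes, Serpina3f to Serpina3n on chromosome 12 (bases 104214544 to 104414334). Runs of 4 included Ms4a genes on chromosome 19, with Ms4a7 (2.30), Ms4a4a (4.91), Ms4a6c (0.98) and Ms4a6d (1.60), and Ankrd55 (1.80), Il6st (1.57), Il31ra (4.61) and Slc38a9 (0.63) on chromosome 13. Cish stood between Mapkapk3 and Hemk1 on chromosome 9, both with log2 ratios of 1.04. The longest lowered run, on chromosome 11, held Zfp652, Phospho1, Abi3, Gngt2 and B4galnt2, with ratios between -1.36 and -0.60. Il1rn and Smox above and the genes of these runs were named after their values were seen, except Cish, Ms4a4a, Il6st, Il31ra and Serpina3f.

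The response was also described by expression level and transcript class. Among the 2648 tested genes with the lowest mean, up to 4.0 FPKM, 6.19% rose and 10.5% fell, and among the 2648 with the highest, from 25.9 FPKM, 6.91% rose and 3.25% fell. The median transcript length was 3590 bases in the former and 2024 bases in the latter. Of 218 long noncoding RNAs 8 rose and 22 fell, against 564 and 598 of 10282 protein-coding genes.

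The same treatment in the knockout macrophages gave a pair of libraries that shares none with the wild-type pair. Trim24, the deleted gene, was listed at 0.06 and 0.14 FPKM without and with IL-4 in the knockout libraries, against 2.55 and 1.48 FPKM in the wild-type. As deposited, 716 of 10623 tested genes were called higher there (6.74%) and 588 lower (5.54%), and 679 rose (6.39%) and 551 fell (5.19%) by both calculations. Of the 576 genes that rose in the wild-type, 450 (78.1%) were called higher in both ways in the knockout pair and none lower, and 561 had a ratio above 0. Of the 629 that fell, 350 (55.6%) were called lower and none higher, and 596 had a ratio below 0. Of the 446 genes called lower only as deposited, 37 (8.30%) were called lower in the knockout pair. As deposited, the median log2 ratios of the raised genes were 1.02 in both pairs, and those of the lowered genes were -0.98 and -0.71. These genes were chosen by their wild-type ratios, which in part fixes the wild-type medians. The relation with transcript length was also stronger in the wild-type pair, so the medians of the pairs are not comparable in size. Arg1 was at 5.40 and 733 FPKM in the knockout and Sema4d at 105 and 14.4 FPKM. The difference between the genotypes was not tested here.

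**Figure D5:**
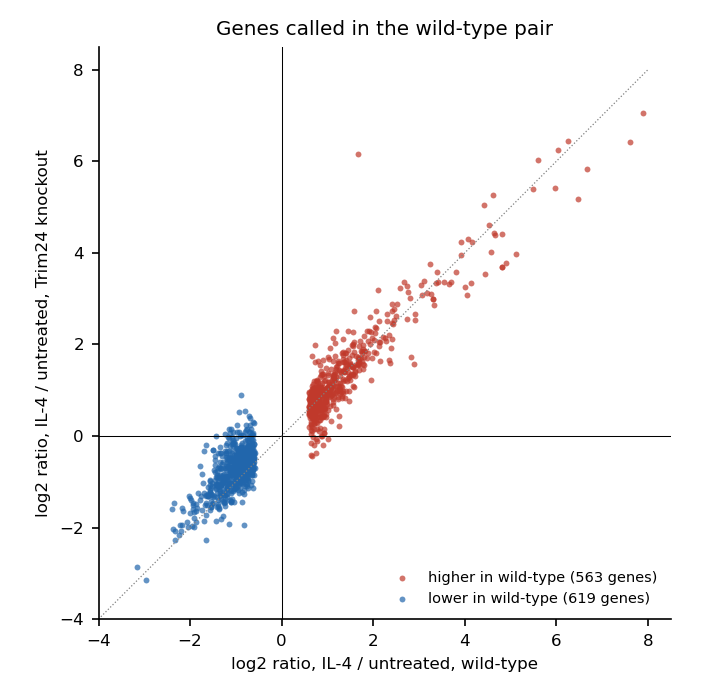
Log2 ratio of IL-4 to untreated in the Trim24 knockout pair (vertical axis) against that in the wild-type pair (horizontal axis) for genes called in the wild-type pair with at least 50 reads in both pairs; red, 563 raised and blue, 619 lowered genes, dotted line of equal ratios. Most raised genes lie above 0 and most lowered genes below 0 on the vertical axis.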

How the data were processed

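Total RNA of wild-type and Trim24 knockout macrophages, untreated or with IL-4, was sequenced in 4 libraries. The authors mapped reads to GRCm38 with Bowtie and deposited, per gene, RSEM expected counts and FPKM values (reads scaled for transcript length and library). Program versions and use of strand are not given in the sources used here. Of 16403 gene IDs, 16365 matched RefSeq symbols, and a gene missing from a table was taken as 0.

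Expected counts were rounded and tested gene by gene with Fisher's exact test, two-sided (SciPy 1.17.1) over genes with at least 50 reads in the pair, with Benjamini-Hochberg adjustment. A call needed an adjusted p under 0.05 and a ratio of (FPKM + 0.1) above 1.5. These tests cover counting error only. A lowess curve (fraction 0.3, statsmodels 0.14.6) of the log2 ratio on log2 transcript length, for transcripts of at least 200 bases, was subtracted for the second calculation, with an exact binomial test. SEs are counting errors. Alternatives were other pseudocounts, read minimums, fold thresholds and motif spacing, scaling by edgeR 4.0.16 or DESeq2 1.42.0, and the exact test of edgeR under assumed biological variation. No other sample columns were present in the tables, and the text names no p across genes.

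Named were the 20 highest and 20 lowest ratios among called genes averaging 5 FPKM or more, up to 4 called genes per list, 7 genes of the IL-4 pathway and the study, genes with at most 3 reads in 1 library, the 10 highest FPKM gains and losses and up to 3 genes per symbol group. A gene and a gene list are not reported here. The gene lists and these choices were made with earlier results of these data known. Promoters are from RefSeq (GRCm38.p6), the first listed per gene. Figures were drawn with matplotlib 3.10.9.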

Additional observations from a re-analysis of the deposited data

Results flagged for a closer look

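Of the named genes, 2 differed between untreated and IL-4 by more than 1.5-fold in opposite directions in the wild-type and knockout pairs. Other named genes with ratios of opposite sign, such as Jak3 (-0.38 and 0.47), stayed within that size in at least 1 pair. The difference between the pairs was not tested. P4ha2, a collagen prolyl hydroxylase, had a ratio of -0.89 in the wild-type (44 and 23 reads) and 0.89 in the knockout (20 and 39 reads). Sap25, which encodes a subunit of a Sin3 corepressor complex, had a ratio of 5.57 in the wild-type (0 and 55.5 reads) and -3.61 in the knockout (13.1 and 0 reads), and its reads may be shared with other gene copies.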

How the results depend on the processing

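No paired analysis was possible because each group has 1 library, and for the same reason no library could be left out. The counts as deposited, 663 genes higher and 1076 lower in the wild-type pair and 716 and 588 in the knockout pair, stayed within 1.5 times under TMM and DESeq2 scaling, a pseudocount of 0.01, every gene with a read and at least 200 reads. Removing the length trend gave 699 lower in the wild-type, and a pseudocount of 1 gave 708. A threshold of 2-fold gave 295 higher and 306 lower in the wild-type and 329 and 197 in the knockout. With an assumed coefficient of variation of 0.2 the counts were 168 and 81 (wild-type) and 189 and 55 (knockout), and with 0.4 they were 40 and 1 and 35 and 1. The share of raised promoters with the motif was 9.39%, or 9.17% at a spacing of 3. With the length trend removed, the sign of 4 named genes turned: Ctss (-0.0109), Psmb6 (-0.0805), Sqstm1 (-0.0515) and Jak1 (0.17). None of the 4 was called. Without replicates the spread between cultures is unknown.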
